A study of Mus musculus with 4 samples.

Results

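The B and plasma cell genes described here are 31 genes chosen by name for their known roles in the B lymphocyte lineage: receptors of the B cell surface, enzymes and adaptors that pass on the signal of the B cell receptor, transcription factors of the lineage, genes of antibody-secreting plasma cells, and the chemokine pair that draws B cells into follicles. Variable immunoglobulin segments were left out of the set. The set was chosen with earlier results of these data known. Of the 31 genes, 29 were matched to an array feature that carries their symbol alone, out of 30142 genes named on the array. For the tests a gene had to exceed a floor, a mean log2 signal of 5.815 over the 4 arrays (the 40th percentile of all named genes), which 28 of the members and 18084 genes in all did. Cd38 had no feature with its symbol. The feature of Pou2f2 also carries the symbol of a miRNA gene, so that it was not used. Fcrl5, an Fc receptor-like protein of B cells, lay below the floor, with log2 signals of 5.04 under smoke against 5.10 in clean air at 2 weeks and of 5.14 against 5.01 at 4 weeks.

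The lungs of male C57BL mice were profiled on microarrays after exposure to mainstream cigarette smoke or to clean air for 1 h per day on 5 days per week, starting at 10 weeks of age. Each group was 1 pool on 1 array: smoke for 2 weeks (5 mice, 12 weeks old at the end), clean air for 2 weeks (5 mice, 12 weeks old), smoke for 4 weeks (4 mice, 14 weeks old) and clean air for 4 weeks (5 mice, 14 weeks old). Clean-air pools are called controls. Because the mice of a group were mixed, nothing can be said of the spread between animals, and a difference between 2 pools of 1 duration is given without a p-value.

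B cells carry on their surface an antibody, the B cell receptor, whose signal runs through the paired chains Cd79a and Cd79b to a cascade of kinases and adaptors. Co-receptors such as Cd22 and Cd72 dampen that signal, whereas Cr2, the receptor for complement fragments, strengthens it. A network of transcription factors around Pax5 and Ebf1 keeps the B cell state, and its replacement by Irf4 and Prdm1 turns the cell into a plasma cell that secretes antibody. In the lung, B cells are found scattered in the tissue and in lymphoid aggregates beside the airways, which chronic smoke exposure is known to enlarge, and Cxcl13 is the chemokine around which such follicles form.

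Many promoters that are active in B cells hold the octamer ATGCAAAT, which is bound by Oct factors together with the coactivator encoded by Pou2af1. The exact octamer was sought on both strands in windows that reach from 250 bases before to 50 bases after each annotated start, in a RefSeq table of assembly GRCm38.p6. It was present in 2 of the 30 windows of the 26 members that have one (6.67%), against 570 of 32851 windows of all genes (1.74%). Both windows are printed, those of Vpreb3 and Blnk, as the member promoters that hold a match. Vpreb3 encodes a chaperone-like partner of newly made immunoglobulin heavy chains. Its window is chr10:75948050-75948349 on the plus strand. Blnk encodes the adaptor that joins the kinase Syk to its targets, and its window is chr19:40994172-40994471 on the minus strand. Each sequence is written 5′ to 3′ along the gene's strand, and the capitals mark the octamer, which lies on the opposite strand in both and is therefore read as its reverse complement.
Vpreb3: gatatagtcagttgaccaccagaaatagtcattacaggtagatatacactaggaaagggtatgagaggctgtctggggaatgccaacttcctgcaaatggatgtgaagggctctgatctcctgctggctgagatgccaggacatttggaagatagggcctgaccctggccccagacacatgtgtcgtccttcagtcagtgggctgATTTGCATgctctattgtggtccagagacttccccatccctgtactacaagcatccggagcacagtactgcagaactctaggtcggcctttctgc
Blnk: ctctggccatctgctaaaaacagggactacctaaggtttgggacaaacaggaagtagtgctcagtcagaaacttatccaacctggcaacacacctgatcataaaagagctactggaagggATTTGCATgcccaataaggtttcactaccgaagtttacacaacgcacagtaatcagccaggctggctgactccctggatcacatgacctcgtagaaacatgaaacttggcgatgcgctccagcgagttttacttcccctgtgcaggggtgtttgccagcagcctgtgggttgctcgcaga
The match starts 45 bases before the annotated start in Vpreb3 and 130 bases before it in Blnk, both outside the transcribed part of the window. A match is a description of the letters and no evidence of binding.

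**Figure D1:**
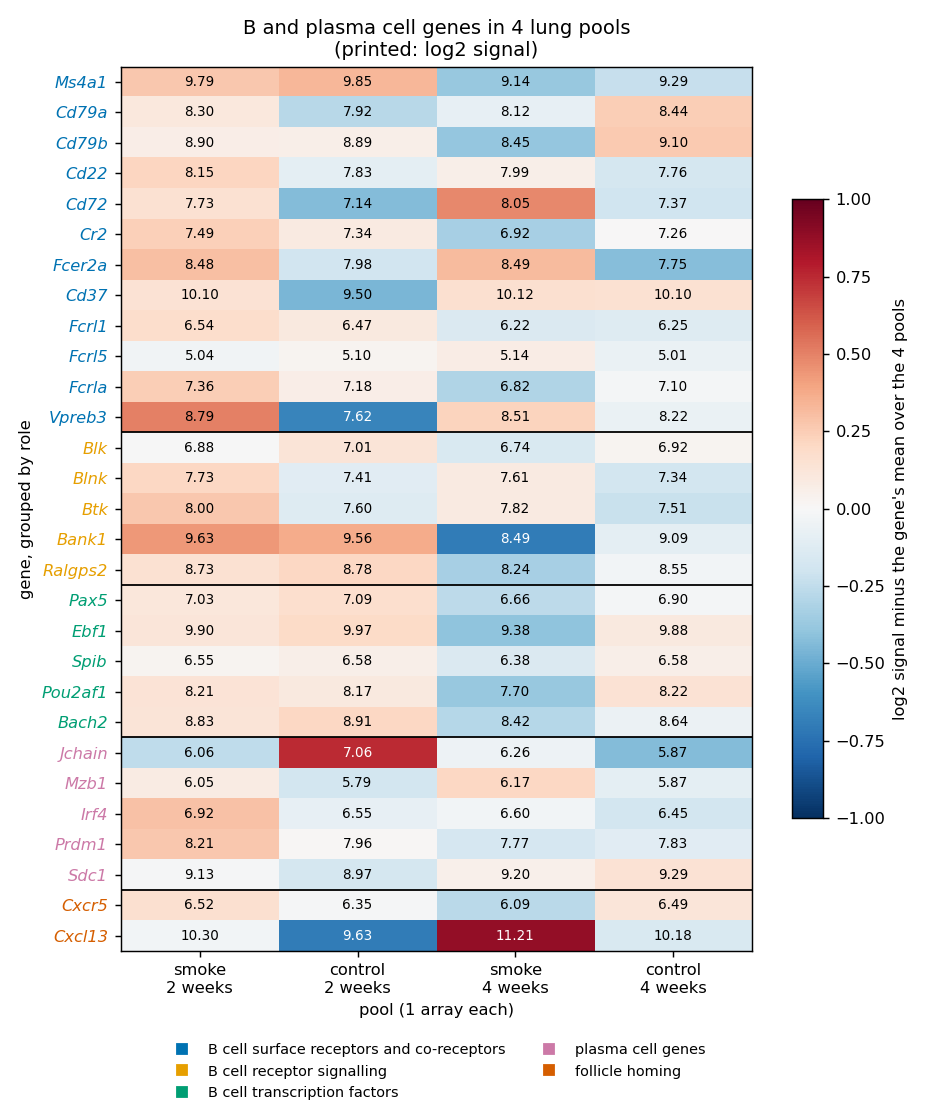
Log2 signal of the 29 matched genes (rows, grouped by role and coloured by group) in the 4 pools (columns); the printed number is the log2 signal and the colour is its distance from the mean of that gene over the 4 pools. Cxcl13 is deepest red in the 4-week smoke pool (11.21), Jchain in the 2-week control pool (7.06), and the block of 5 transcription factors is bluest in the 4-week smoke pool.

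Over both durations 2 of the 28 members rose under smoke and 0 fell. Cxcl13, the B cell-attracting chemokine, rose by 1.81-fold, and Cd72, an inhibitory receptor of B cells, by 1.55-fold. The other 26 did not pass. The test was limma with smoke and duration as terms, with Benjamini-Hochberg adjustment across the 18084 genes above the floor. With 1 residual degree of freedom it takes the change of the smoke difference between the durations as error. Its eBayes step moderates that error toward a spread shared by all genes tested. Of all genes tested, 1.15% rose and 0.315% fell. Without the duration term 0 of the 18084 genes rose and 0 fell, and with a pool left out few or none were called. A call lost in those settings, here and below, is therefore not particular to the gene named. At an unadjusted p under 0.05, limma placed 8 members higher and 0 lower, against 6.46% of all genes higher and 5.16% lower; the counts at this limit in the lists that follow stand beside the same shares. Each fold takes the linear scale of the files to be the antilog of base 2; with base e, log2 differences would shrink to 0.693 of those given. In whole lung, a change in the number of cells of a type and a change in the RNA per cell cannot be told apart.

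**Figure D2:**
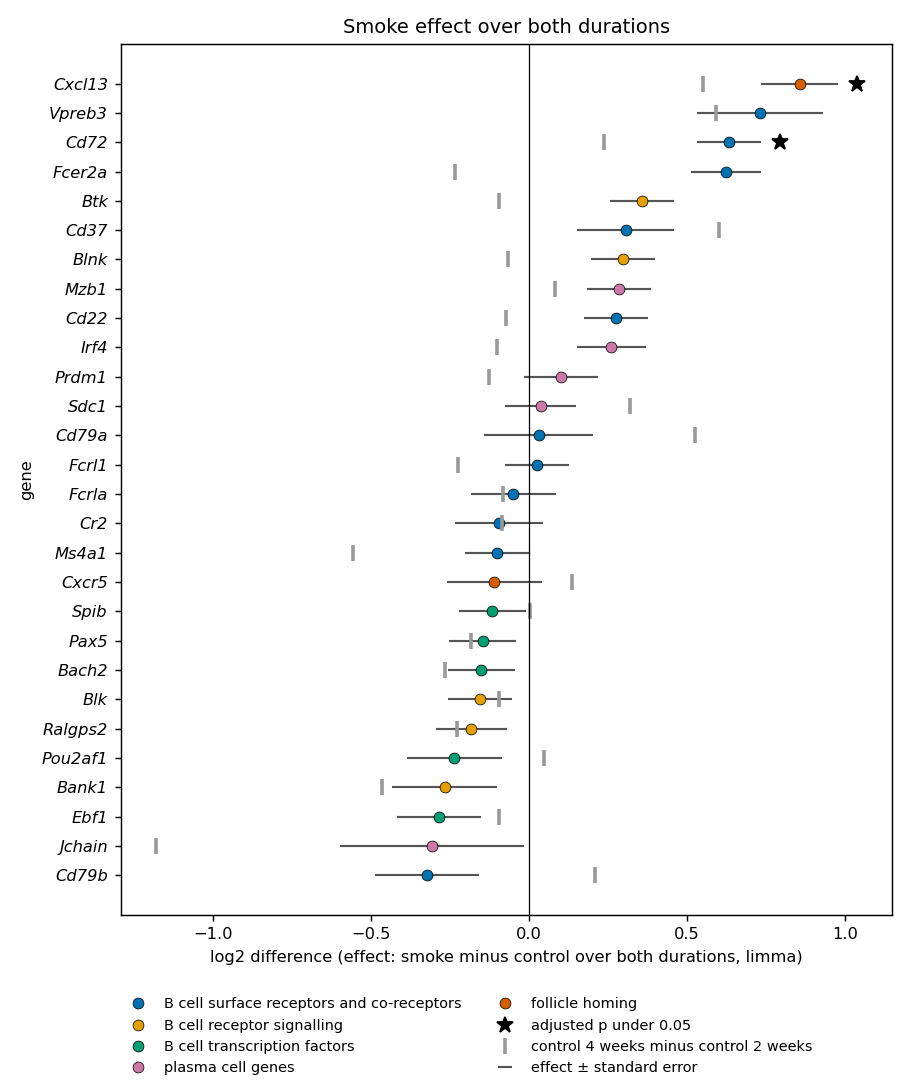
Smoke effect over both durations (horizontal axis, log2 smoke minus control with its standard error from limma) for the 28 members above the floor, ordered by size and coloured by role, with the 4-week minus 2-week control difference as a grey tick. Stars mark Cxcl13 and Cd72, the members with an adjusted p under 0.05; the grey ticks of Cd37, Ms4a1 and Jchain, among others, lie farther from 0 than the smoke effect of the same gene.

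Without regard to the test, the signals of 9 members were higher in both smoke pools than in both control pools: Cd22, Cd72, Fcer2a, Vpreb3, Blnk, Btk, Mzb1, Irf4 and Cxcl13. Of all genes tested, 15.7% were placed this way. Blk and Spib were lower in both smoke pools than in both control pools, as were 16.8% of all genes. The pools of the other 17 members overlapped.

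Cxcl13 is the ligand of the follicle-homing pair and Cxcr5 is its receptor. Cxcl13 had a log2 signal of 10.30 under smoke against 9.63 in control lungs at 2 weeks, and of 11.21 against 10.18 at 4 weeks. The smoke pools did not overlap with the control pools, and the 4-week smoke pool was the highest. The difference was 0.68 on the log2 scale, or 1.60-fold, at 2 weeks and 1.03, or 2.05-fold, at 4 weeks. The limma effect was 0.86 ± 0.123 (SE) with an adjusted p of 0.0321. The call was lost after cyclic loess scaling (adjusted p = 0.0934), without the duration term (adjusted p = 0.778) and with any 1 pool left out. The control pools themselves differed by 0.55, with 10.18 at 4 weeks and 9.63 at 2 weeks. The receptor was not called. Cxcr5 gave 6.52 under smoke against 6.35 in control lungs at 2 weeks and 6.09 against 6.49 at 4 weeks, so that the 4-week smoke pool was the lowest of the 4. Its limma effect was -0.11 ± 0.151 (SE), with an adjusted p of 0.885.

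Among the 11 surface receptors and co-receptors tested, 1 rose, 0 fell and 10 did not pass, with 4 higher and 0 lower at an unadjusted p under 0.05 in limma. Their median smoke difference was 0.32 on the log2 scale at 2 weeks and -0.02 at 4 weeks. Over all genes the medians were 0.01 and -0.02.

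Cd72 is a C-type lectin-like receptor that restrains B cell receptor signalling. Its log2 signal was 7.73 under smoke against 7.14 in control lungs at 2 weeks and 8.05 against 7.37 at 4 weeks. Both smoke pools lay above both control pools, by 0.59 on the log2 scale at 2 weeks and by 0.68, or 1.60-fold, at 4 weeks. The limma effect was 0.63 ± 0.102 (SE) with an adjusted p of 0.0465, just under the limit of 0.05. The call was lost after cyclic loess scaling (adjusted p = 0.0894), with no floor (adjusted p = 0.0696), without the duration term (adjusted p = 0.436) and with any 1 pool left out.

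Fcer2a, the low-affinity IgE receptor CD23, came next to the limit on the other side. It measured 8.48 under smoke against 7.98 in control lungs at 2 weeks and 8.49 against 7.75 at 4 weeks, so that the smoke pools were alike and both were above the controls. Its effect was 0.62 ± 0.112 (SE) with an adjusted p of 0.0639, and it passed in 4 of the alternative settings.

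Vpreb3 showed the largest 2-week difference among the members. The 2-week smoke pool had 8.79 against 7.62 in the 2-week control, a 2.24-fold difference, and the 4-week smoke pool 8.51 against 8.22, a 1.23-fold difference. The 2-week control was the lowest pool. The effect over both durations was 0.73 ± 0.199 (SE) with an adjusted p of 0.206, and the control pools differed by 0.59 from each other.

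Cd37, a tetraspanin of mature B cells, was apart in a single pool. Its signals were 10.10 under smoke against 9.50 in control lungs at 2 weeks and 10.12 against 10.10 at 4 weeks. The 2-week control was the lowest, and the other 3 pools lay between 10.10 and 10.12. The adjusted p was 0.537.

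Cd79a and Cd79b, the signalling chains of the B cell receptor, were both below their control at 4 weeks. Cd79a had 8.30 under smoke against 7.92 in control lungs at 2 weeks, and 8.12 against 8.44 at 4 weeks, a difference of 0.38 at 2 weeks and of -0.33 at 4 weeks. Cd79b had 8.90 against 8.89 at 2 weeks and 8.45 against 9.10 at 4 weeks, which made it 1.57-fold lower under smoke at 4 weeks. Their adjusted p-values were 0.983 and 0.546.

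Ms4a1, which encodes CD20, is the most widely used B cell marker of the set. It had 9.79 under smoke against 9.85 in control lungs at 2 weeks and 9.14 against 9.29 at 4 weeks. The 4-week pools were lower than the 2-week pools whether or not the mice had breathed smoke, with 4-week minus 2-week differences of -0.65 on the log2 scale under smoke and -0.56 in control lungs. The smoke effect was -0.10 ± 0.102 (SE), with an adjusted p of 0.818.

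The remaining surface genes had effects between -0.10 and 0.27. Cd22, an inhibitory lectin that binds sialic acid, was 0.32 higher under smoke at 2 weeks and 0.23 higher at 4 weeks, and its adjusted p was 0.365. Cr2 was 0.15 higher at 2 weeks and 0.34 lower at 4 weeks (difference -0.34). A second feature of Cr2 gave -0.13 at 2 weeks and -0.39 at 4 weeks, so that the 2 features disagree in sign at 2 weeks. The Fc receptor-like genes Fcrla and Fcrl1 differed by 0.18 and 0.07 at 2 weeks and by -0.28 and -0.02 at 4 weeks.

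Of the 5 signalling genes none passed in either direction, and 2, Btk and Blnk, were higher at an unadjusted p under 0.05 in limma. Btk, the tyrosine kinase whose loss arrests B cell development, was 0.40 higher under smoke at 2 weeks, against 7.60 in the control, and had 7.82 under smoke against 7.51 in control lungs at 4 weeks. Blnk had 7.73 against 7.41 at 2 weeks and 7.61 against 7.34 at 4 weeks. In both genes the smoke pools lay above the control pools, with adjusted p-values of 0.224 for Btk and 0.318 for Blnk.

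Bank1, a scaffold protein of B cell receptor signalling, had 9.63 under smoke against 9.56 in control lungs at 2 weeks and 8.49 against 9.09 at 4 weeks. The 4-week smoke pool was the lowest, 1.52-fold below its control and with a log2 difference of -1.14 from the 2-week smoke pool. The adjusted p was 0.656. Blk, a Src-family kinase of B cells, differed by -0.13 at 2 weeks and -0.18 at 4 weeks, and Ralgps2, an exchange factor for Ral GTPases, by -0.06 and -0.31.

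All 5 transcription factors had their lowest signal in the 4-week smoke pool, as did 32.2% of all genes. None passed in limma, and none had an unadjusted p under 0.05 in either direction. Ebf1, which commits precursors to the B lineage, had 9.90 under smoke against 9.97 in control lungs at 2 weeks and 9.38 against 9.88 at 4 weeks. Pou2af1, the octamer coactivator, had 8.21 against 8.17 at 2 weeks and 7.70 against 8.22 at 4 weeks. The 4-week differences were -0.50 for Ebf1 and -0.52 for Pou2af1, with adjusted p-values of 0.490 and 0.666.

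Pax5, the guardian of B cell identity, differed by -0.05 at 2 weeks and by -0.24 at 4 weeks. Bach2, a repressor that holds back plasma cell differentiation, differed by -0.08 and -0.23, and Spib, an Ets-family factor, by -0.03 and -0.20. All 5 factors were below 0 at 4 weeks under the deposited scaling, cyclic loess and median centring alike. At 2 weeks 4 of them were below 0, and 3 after median centring. Under the deposited scaling, 48.6% of all genes were below 0 at 2 weeks and 53.5% at 4 weeks.

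Plasma cell genes gave no call either: 0 of 5 rose and 0 fell, with 1 (Mzb1) higher and 0 lower at an unadjusted p under 0.05 in limma. Their median smoke difference was 0.26 at 2 weeks and 0.15 at 4 weeks. Jchain encodes the joining chain of polymeric IgA and IgM. Its log2 signal was 6.06 under smoke against 7.06 in control lungs at 2 weeks and 6.26 against 5.87 at 4 weeks. The 2-week control was above the other 3 pools, which lay between 5.87 and 6.26. Smoke was therefore 2.00-fold lower at 2 weeks and 1.30-fold higher at 4 weeks, while the 4-week control was 2.27-fold lower than the 2-week control. The adjusted p was 0.806.

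Mzb1, an endoplasmic reticulum protein needed for antibody secretion, had 6.05 under smoke against 5.79 in control lungs at 2 weeks and 6.17 against 5.87 at 4 weeks. The smoke pools lay above the controls by a small margin near the floor (adjusted p = 0.341). Irf4, which drives plasma cell differentiation, was 0.37 higher at 2 weeks and 0.15 higher at 4 weeks, with an adjusted p of 0.438. Prdm1, which encodes Blimp-1, differed by 0.26 and -0.05. Sdc1 encodes CD138, which plasma cells share with epithelia, and differed by 0.16 and -0.09.

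Taken pool by pool with no test, 4 members were at least 1.5-fold higher under 2 weeks of smoke than in the 2-week control (Vpreb3, Cxcl13, Cd37 and Cd72), against 1.82% of all genes, and 1 (Jchain) was lower, against 1.22%. After 4 weeks 3 members were higher (Cxcl13, Fcer2a and Cd72), against 2.53% of all genes, and 2 were lower (Cd79b and Bank1), against 1.5%. Higher at both durations were 2 members, Cxcl13 and Cd72, against 1.13% of all genes. Between the 4-week and the 2-week control pool 2 members were higher (Cd37 and Vpreb3), against 1.85% of all genes, and 1 was lower (Jchain), against 2.25%. Between the 4-week and the 2-week smoke pool 1 was higher (Cxcl13), against 1.35%, and 2 were lower (Bank1 and Ms4a1), against 1.79%. Control lungs of the 2 ages thus differed in 3 members at this limit, and smoke-exposed lungs differed from their controls in 5 members at each duration. Over all genes, 1.85% were higher and 2.25% lower between the controls. Under smoke 1.82% were higher and 1.22% lower at 2 weeks, and 2.53% and 1.5% at 4 weeks. These counts were not compared in a test.

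Most members had a higher smoke difference, taken with its sign, at 2 weeks than at 4 weeks. The median difference of the 28 members was 0.17 on the log2 scale at 2 weeks, where 20 were above 0 and 8 below. Below 0 at 2 weeks were thus 28.6% of the members, against 48.6% of all genes. At 4 weeks the median was -0.12, with 17 members below 0 (60.7%), near the 53.5% of all genes. With its sign, the smoke difference was lower at 4 weeks than at 2 weeks in 23 of the 28 members (82.1%), against 56.8% of all genes. It was lower in 24 after cyclic loess and in 25 after median centring. A lower value can be a smaller rise or a larger fall, so these counts do not describe the size of the difference. These differences share no pool between the durations, but each rests on 1 pool per group and the change was not tested.

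**Figure D3:**
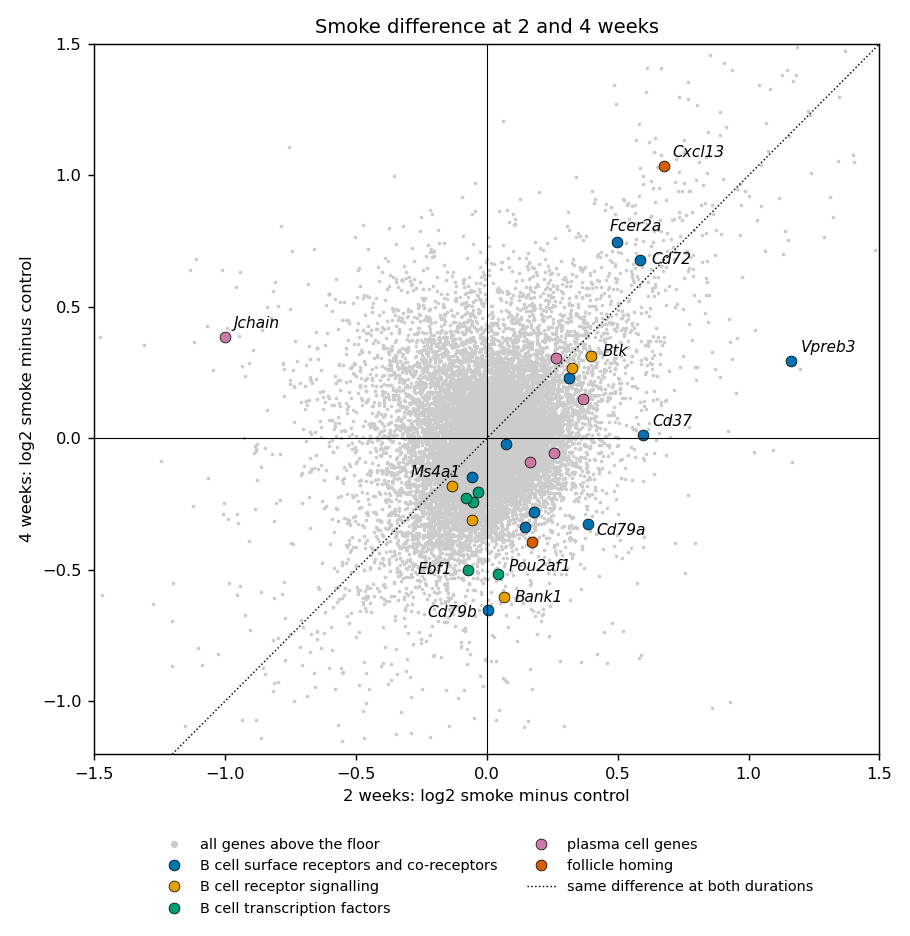
Log2 smoke minus control at 2 weeks (horizontal axis) and at 4 weeks (vertical axis) for all genes above the floor in grey (98 lie outside the axes) and the 28 members in the colours of their roles. Most members lie below the dotted line of equal differences; Cxcl13, Fcer2a and Cd72 sit together at the upper right, and the 5 transcription factors sit close to 0 at 2 weeks and below 0 at 4 weeks.

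The lowest of the 4 pools was the 4-week smoke pool in 15 of 28 members (53.6%), against 32.2% of all genes. The 2-week smoke pool was the lowest in 0 members, against 17.9% of all genes, the 2-week control in 7 and the 4-week control in 6. The 15 genes were Ms4a1, Cd79b, Cr2, Fcrl1, Fcrla, Blk, Bank1, Ralgps2, the 5 transcription factors, Prdm1 and Cxcr5. From 2 to 4 weeks, 17 members were lower in control lungs too (60.7%, against 47.9% of all genes). Between the smoke pools 21 were lower (75%, against 49.6%). Each group is 1 pool, the controls of the 2 durations also differ in age, and the order of the pools was not tested.

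Genes of the same pathways outside the set, taken from lists written with earlier results of these data known, are given for comparison. Of 12 immunoglobulin constant genes 3 were tested, and none passed in either direction, nor at an unadjusted p under 0.05 in limma. Ighm, the heavy chain of IgM, had 11.02 under smoke against 11.02 in control lungs at 2 weeks and 10.26 against 10.60 at 4 weeks, so that both 4-week pools were lower than both 2-week pools, as in Ms4a1. Ighg2b had 5.68 against 6.63 at 2 weeks and 6.26 against 5.63 at 4 weeks. As for Jchain, its highest pool was the 2-week control. Ighg1 differed by 0.06 at 2 weeks and 0.20 at 4 weeks, and Ighe lay below the floor. Ighd, Igha, Ighg2c, Ighg3, Igkc, Iglc1, Iglc2 and Iglc3 had no feature of their own and are not analysed here.

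Of 15 further B cell receptor genes 2 rose, 0 fell and 13 did not pass. All 15 were above 0 at both durations, with a median of 0.24 at each. At 4 weeks 2 of them were below 0 after cyclic loess and 2 after median centring. Of all genes, 48.6% were below 0 at 2 weeks and 53.5% at 4 weeks under the deposited scaling. The smallest differences of the list were 0.02 at 2 weeks and 0.002 at 4 weeks. The 28 members did not share this direction, with 8 below 0 at 2 weeks and 17 at 4 weeks. The part of cells other than B cells in the signals of this list was not tested. Malt1, a paracaspase that links antigen receptors to NF-kappaB, rose by 1.75-fold (0.80 ± 0.116 SE, adjusted p = 0.0321). Ly86, the partner of the Cd180 receptor on B cells and myeloid cells, rose by 1.60-fold (0.68 ± 0.101 SE, adjusted p = 0.0348). Of 15 further identity and maturation genes 1 rose and 14 did not pass; it was Cd86, a costimulatory ligand of activated B cells, dendritic cells and macrophages (0.71 ± 0.110 SE, adjusted p = 0.0401). The BAFF and APRIL ligands and receptors that sustain B cells gave 0 calls among 3 tested, and 0 at an unadjusted p under 0.05 in limma; the survival factor Tnfsf13b had an effect of 0.16 and its receptor Tnfrsf13c one of -0.17.

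Of 10 plasma cell secretory genes 1 rose, Slamf7, a receptor that natural killer cells and macrophages also carry (1.30 ± 0.137 SE, adjusted p = 0.0125). Pigr, the epithelial receptor that carries IgA and IgM bound to the joining chain into the airway, was the only 1 of 3 mucosal IgA genes to rise. It had 13.20 under smoke against 11.78 in control lungs at 2 weeks and 14.02 against 11.94 at 4 weeks, a 3.36-fold effect (1.75 ± 0.165 SE, adjusted p = 0.00796). Lymphoid chemokine and follicle genes other than Cxcl13 gave 0 calls among 8 tested, with 1 higher at an unadjusted p under 0.05 in limma. Ccl20, which attracts cells bearing Ccr6, had an effect of 0.53 (adjusted p = 0.0775), and Chst4, an enzyme of high endothelial venules, one of -0.42 (adjusted p = 0.556). The calls of Malt1, Ly86, Cd86, Slamf7 and Pigr were lost after cyclic loess scaling, without the duration term and with any 1 pool left out, and those of Ly86 and Cd86 also with no floor (adjusted p = 0.0517 and 0.0547).

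**Figure D4:**
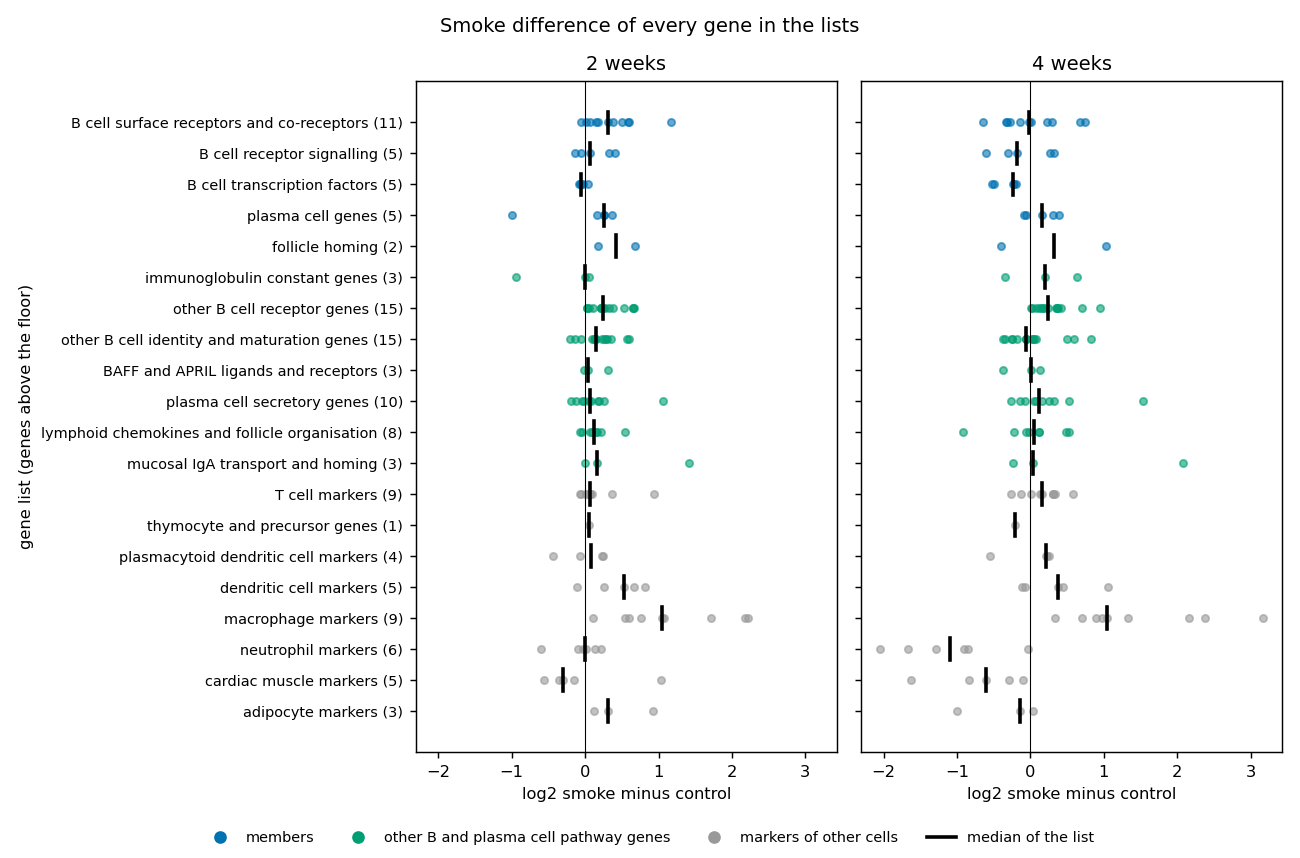
Log2 smoke minus control (horizontal axes) of every gene above the floor in each list at 2 weeks (left) and 4 weeks (right), with members in blue, further B and plasma cell pathway genes in green, markers of other cells in grey and the median of each list as a black bar. Macrophage markers have medians of 1.05 and 1.04, and the median of the B cell transcription factors is -0.05 at 2 weeks and -0.24 at 4 weeks.

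Markers of other cells differed between the same pools. Of 9 macrophage markers 7 rose and all 9 were higher in both smoke pools than in both control pools, with median differences of 1.05 at 2 weeks and 1.04 at 4 weeks. Their summed linear signal was 369513 under smoke against 331875 in control lungs at 2 weeks and 431181 against 327413 at 4 weeks. The probe of Lyz2, which did not pass, gave 92.3% to 97.2% of that sum; without it the sum was 20592 under smoke against 9216 in control lungs at 2 weeks and 33131 against 10370 at 4 weeks. Cd68, a lysosomal protein of macrophages, rose by 4.84-fold and Itgax, an integrin of alveolar macrophages and dendritic cells, by 3.82-fold. The scavenger receptor gene Marco rose by 6.48-fold, the complement gene C1qb by 2.31-fold, Cd14 by 2.06-fold, the mannose receptor gene Mrc1 by 1.72-fold and C1qa by 1.66-fold. After cyclic loess the calls of Mrc1 and C1qa were lost, with no floor that of Mrc1, and without the duration term or with any 1 pool left out all 7. Macrophages are known to express Btk, Cd86 and Ly86 as well. The part of these cells in the signals of the members, Cd72 and Fcer2a included, and of the further pathway lists was not tested.

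T cell markers gave 0 calls among 9, with 2 higher and 0 lower at an unadjusted p under 0.05 in limma, and medians of 0.06 at 2 weeks and 0.16 at 4 weeks. Their summed signal was 1245 under smoke against 1036 in control lungs at 2 weeks and 1398 against 1177 at 4 weeks. Cd3e, a chain of the T cell receptor complex, had 8.42 against 7.48 at 2 weeks and 8.66 against 8.36 at 4 weeks, with the 2-week control lowest, as in Vpreb3 and Cd37. Cd4, the co-receptor of helper T cells, had an effect of 0.47 (adjusted p = 0.137). Dendritic cell markers had medians of 0.53 and 0.37, and Itgae rose among 5 (0.93, adjusted p = 0.0191), a call lost after cyclic loess (adjusted p = 0.0652), without the duration term (adjusted p = 0.232) and with any 1 pool left out. Neutrophil markers had a median smoke difference of -0.01 at 2 weeks and -1.10 at 4 weeks, with 0 calls among 6 (1 lower at an unadjusted p under 0.05 in limma). The small 2-week median turned above 0 after both other scalings. Between the durations, their median difference was -0.35 under smoke and 0.86 in control lungs, so that the 4-week control pool was high. S100a9, a subunit of calprotectin, had an effect of -1.33 (adjusted p = 0.132) and its partner S100a8 one of -0.72 (adjusted p = 0.572). Cardiac muscle markers had medians of -0.31 and -0.61, adipocyte markers 0.31 and -0.14, and plasmacytoid dendritic cell markers 0.08 and 0.22, with 0 calls in each; at an unadjusted p under 0.05 limma placed 2 of 5 cardiac genes lower, 0 of 3 adipocyte genes either way and 1 of 4 plasmacytoid genes higher. The largest effects were -0.59 for Myh6 and -0.57 for Tnnt2 of heart muscle, 0.17 for Adipoq and -0.04 for Car3 of fat, and 0.25 for Bst2 and -0.16 for Cox6a2 of the plasmacytoid list. The single thymocyte or precursor gene above the floor, of 7 listed, was Cd1d1, with an effect of -0.07. The part of these cells in the results was not tested.

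The label of the set was checked against defining markers. Ms4a1, Cd79a, Cd79b, Pax5, Fcer2a, Cr2, Cd22, Blk and Bank1 were above the floor. Of the plasma cell markers Mzb1 lay close to the floor, at 5.79 to 6.17, and Tnfrsf17, the receptor of long-lived plasma cells, lay below it, at 4.90 to 5.26. Irf4, Prdm1, Sdc1 and Xbp1, which were above it, are also expressed by other cells of the lung.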

How the data were processed

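RNA of 4 lung pools, 1 per group, was hybridised to 1 array each; the pool titles gave the groups. Extraction used the RNeasy Mini Kit and labelling the GeneChip WT PLUS kit, per the labels' protocols. Each deposited value is a linear intensity of 1 feature; per the submitters' processing notes, the authors normalised with RMA (Affymetrix Expression Console 1.4.1). RMA removes a shift of all genes, so that differences are relative to the other genes. The sources used here give neither the genome build nor the base of the linear values. The table had 65956 features and 0 columns of other samples; median signals were 60.0 and 61.1 in the smoke pools and 61.7 and 58.8 in the control pools. The number of arrays limits the precision, and no detection value was used.

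Log2 of the deposited values was taken here. Features with exactly 1 symbol in the array annotation (30604) were named, 827 symbols were updated through a RefSeq table, and the feature with the highest mean stood for a gene. Genes above the 40th percentile were tested with limma 3.58.1 (lmFit and eBayes, R 4.3.3), with smoke and duration as terms, over all 18084 genes; an adjusted p under 0.05 was a call. Pool differences were counted from 1.5-fold. P-values reflect how the smoke difference changed between durations, which may be technical. A change that differs between durations thus counts as error. The eBayes step moderated that error toward a spread shared by all genes tested (standard deviation 0.1094). The shared spread weighed as 5.382 degrees of freedom, against 1 residual degree of freedom per gene.

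The members and lists were chosen with earlier results of these data known. All members and immunoglobulin constant genes are named, and of other lists the genes that passed or, with none, the 2 with the largest effect; a few members are singled out after their values were seen. The alternatives were cyclic loess, median centring, no floor, a floor at the 60th percentile, the mean over a gene's features, base e, no duration term, only protein-coding genes, an intensity trend, and each pool left out.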

Additional observations from a re-analysis of the deposited data

Results flagged for a closer look

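In 3 of the genes listed, smoke and control pools differed by at least 1.5-fold in opposite directions at the 2 durations. Ighg2b, the heavy chain of an IgG subclass, had a log2 smoke minus control difference of 0.63 at 4 weeks and -0.94 at 2 weeks, so that the 4-week minus the 2-week difference was 1.57. Its signals in the 2-week smoke pool (5.68) and the 4-week control pool (5.63) were under 5.815, the value of the floor. Car3, a carbonic anhydrase of fat and muscle on the adipocyte list, had -1.004 at 4 weeks and 0.93 at 2 weeks, a change of -1.93. Nppa, the natriuretic peptide of heart atria on the cardiac list, had -1.62 at 4 weeks and 1.04 at 2 weeks, a change of -2.66; it was named after its values were seen. Each difference rests on 1 pool per group, and the difference between the durations was not tested.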

How the results depend on the processing

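The 2 members that rose became 0 after cyclic loess, 4 after median centring, 1 with no floor, 0 without the duration term and 5 with only protein-coding genes, and 0 (lowest and highest) whichever pool was left out. Where the count was 0, limma at an unadjusted p under 0.05 placed 8 members higher and 0 lower after cyclic loess, 6 higher and 0 lower without the duration term, and 3 to 5 higher and 0 to 5 lower with a pool left out (3 higher and 5 lower without the 2-week smoke pool). Over all genes the 208 risen became 64 after cyclic loess and 375 after median centring, 178 with no floor, 263 with the floor at the 60th percentile, 565 with only protein-coding genes, 0 without the duration term, and 0 to 25 with a pool left out; the 57 fallen became 8, 210, 46, 116, 317, 0, and 0 to 9. Fits without a pool have no duration term, so that their smoke effect also takes in a part of the difference between the durations. No member fell in any setting. Members at least 1.5-fold higher under smoke became 1 at each duration with base e. Those lower at 2 weeks became 0 with the floor at the 60th percentile, and those lower at 4 weeks 1 after cyclic loess and 0 with base e. Between the control pools, members higher became 4 after median centring and 0 with base e, and those lower 0 with the floor at the 60th percentile. The 2-week median of the members moved to 0.286 with that floor. Fcer2a passed under median centring, the 60th-percentile floor, only protein-coding genes and the intensity trend, Vpreb3 under median centring and only protein-coding genes, and Btk with only protein-coding genes. The smoke effect turned sign in 14 members, none of them called, only when a pool was left out. Its lowest and highest values were -0.358 and 0.0559 in Bach2, -0.836 and 0.300 in Bank1, -0.232 and 0.292 in Cd79a, -0.380 and 0.190 in Cr2, -0.326 and 0.104 in Cxcr5, -0.135 and 0.185 in Fcrl1, -0.322 and 0.221 in Fcrla, -0.900 and 0.283 in Jchain, -0.427 and 0.222 in Ms4a1, -0.335 and 0.0394 in Pax5, -0.493 and 0.0199 in Pou2af1, -0.118 and 0.320 in Prdm1, -0.425 and 0.0590 in Ralgps2, and -0.123 and 0.196 in Sdc1. Apart from the missing duration term and the fewer genes or pools that some settings use, the cause of these changes was not tested. The duration term already pairs the smoke and control pools of a duration, and no further block could be fitted with 1 pool per group.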
